A study of Mus musculus with 9 samples.

Results

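The MYC, MAX and MXD network is a family of 10 genes here, Myc, Mycn, Mycl, Max, Mxd1, Mxd3, Mxd4, Mxi1, Mnt and Mga. Members were chosen by gene symbol, and each was found in all 9 count tables among 55291 symbols. The RNA came from a mouse model of acute myeloid leukaemia (AML) whose cells carry Trp53(R172H/delta), which pairs the missense change R172H of the p53 gene with an allele marked delta. All 9 libraries share that genotype. Wild-type recipient mice gave 3 lung libraries and 3 bone marrow libraries, and cells grown in vitro gave 3 culture libraries. Setting lung beside bone marrow compares the network between sites of growth, and setting either beside culture compares it with growth outside the animal. The sources used here do not give how the leukaemia was made, whether it is 1 clone or how old the mice were.

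MAX is the shared partner of the network. MYC and its relatives MYCN and MYCL bind DNA as dimers with MAX and favour transcription of genes for growth, ribosome assembly and metabolism. The MXD proteins (MXD1, MXI1, MXD3 and MXD4) and MNT also pair with MAX, bind the same E-box sequence and recruit the SIN3 corepressor, so they compete with MYC for partner and site. MGA is a large MAX partner that belongs to a Polycomb repressor complex. In blood cell formation, MYC is known for progenitor growth, while MXD1 is known to rise as myeloid cells mature and stop dividing.

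The core E-box that MAX dimers recognise is CACGTG, which reads the same on both strands. It was searched in promoter windows from RefSeq (GRCm38.p6) that run from 250 bases before to 50 bases after each annotated start. Windows were found for 9 of the 10 members, all but Myc. The letters occurred in 3 of these 9 genes, Max, Mnt and Mxd4, beside 8.09% of all 27025 genes with windows (7.15% of all 32851 windows). The motifs are shown with their flanking bases because they hold the letters that the network's own dimers bind. Each is on the strand of its gene, with the E-box in capitals. A match is a description of the sequence and not a measured binding site.
Max, minus strand, chr12:76962246-76962311: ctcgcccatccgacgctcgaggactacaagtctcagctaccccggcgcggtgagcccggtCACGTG
Mnt, plus strand, chr11:74830741-74830866: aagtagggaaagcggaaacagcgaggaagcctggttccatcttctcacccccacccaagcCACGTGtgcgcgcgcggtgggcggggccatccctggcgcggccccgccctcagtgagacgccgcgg
Mxd4, minus strand, chr5:34187864-34187960: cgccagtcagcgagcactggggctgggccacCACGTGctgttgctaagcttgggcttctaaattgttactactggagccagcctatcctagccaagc
In Max the motif lay across the RefSeq start itself. The GENCODE annotation, used for the gene spans below, puts the Max start at 76962201, downstream of the motif. In Mnt the centre of the motif was 120 bases before the RefSeq start and in Mxd4 216 bases before it. The windows of Mxd1, Mxd3, Mga, Mycn and Mycl, and the 3 windows of Mxi1, did not hold these letters. The 3 genes with the motif did not share a pattern in the values given next, where Max was highest in lung, Mnt highest in culture, and Mxd4 passed the test in no comparison.

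Counted reads ran from 27485111 to 38761363 per library, and 1 read corresponded to 0.0249 to 0.0371 CPM (counts scaled to a common library size). Libraries were checked against cell type markers. Of 12 markers of AML blasts and progenitors, Kit was at 506 to 764 CPM in lung, 565 to 674 CPM in bone marrow and 1130 to 1214 CPM in culture, and Myb at 415 to 554.6 CPM over all 9 libraries. Gata2 was at 162 to 205.5 CPM in lung, 50.1 to 55.5 CPM in bone marrow and 296.5 to 301.5 CPM in culture. Spi1 was at 7.56 to 18.0 CPM over the tissue libraries and 3.09 to 4.56 CPM in culture, and Ptprc at 1.79 to 17.2 CPM and 1.31 to 2.03 CPM. The other markers, Mpo, Cd33, Cd34, Flt3, Cebpa, Itgam and Csf2ra, were at 0.0949 to 3.09 CPM in lung, at 0.0619 to 58.1 CPM in bone marrow and at most 0.123 CPM in culture. Summed RNA of 12 neutrophil markers was 12.5 to 87.3 CPM in lung, 326 to 2052 CPM in bone marrow and 1.31 to 2.62 CPM in culture. Bone marrow replicate 3 held the highest sum, and Ly6g had no reads in lung replicates 2 and 3. Summed lung epithelium markers (10 genes) reached 14.9 to 84.2 CPM in lung, with at most 0.773 CPM in bone marrow and 1.01 CPM in culture. Summed markers of 12 tissue macrophage and monocyte genes were 14.7 to 25.8 CPM in lung, 23.1 to 48.3 CPM in bone marrow and 4.08 to 4.52 CPM in culture. Their part in the results was not tested beyond the fits that leave out a library. No source says that libraries came from separate mice or cultures, so p-values measure the spread between these libraries, which may be technical.

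Myc was the dominant RNA of the network in every group and highest in bone marrow. Its gene lies on chromosome 15 from 61985391 to 61990374 (GRCm38, plus strand, protein coding). Its level in replicates 1 to 3 was 521, 592 and 529 CPM in lung, 754, 691 and 736 CPM in bone marrow and 591, 624 and 585 CPM in culture. All bone marrow libraries lay above all lung and culture libraries, while lung and culture overlapped. Myc was lower in lung than in bone marrow, by a log2 change of -0.41 ± 0.08 (SE; edgeR quasi-likelihood adjusted p = 0.0026), which is 0.753 times the bone marrow level. It was higher in bone marrow than in culture (log2 change 0.28 ± 0.08, adjusted p = 0.0071). The median absolute log2 change of all tested genes was 0.27 in lung against bone marrow and 0.55 in bone marrow against culture. Lung against culture did not pass (-0.13 ± 0.08, adjusted p = 0.16). Whether such a difference reflects RNA per cell or a different mix of cells cannot be told apart in bulk libraries.

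The relatives of Myc were almost silent. Mycn, known from neural tumours and from blood stem cells, had 1 read in the 3 lung libraries, 1 read in the bone marrow libraries and 0 in culture. A count of 0 over the 3 culture libraries allows a level of up to 0.0342 CPM by a floor of 3 reads, and the exact Poisson 95% interval for Mycn there ends at 0.0421 CPM (both cover counting error only). Mycl had 8 reads in lung (0.0796 CPM, exact Poisson 95% interval 0.0344 to 0.157), 6 in bone marrow (0.0565 CPM, 0.0207 to 0.123) and 1 in culture (0.0114 CPM, 0.000289 to 0.0636), and these intervals overlap. Both fell below the filter on low counts, so 8 of the 10 members were tested.

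Max (chromosome 12 from 76937269 to 76962201, minus strand), the common partner, was higher in both tissues than in culture. It was at 73.3, 70.6 and 64.7 CPM in lung, at 65.5, 57.2 and 62.4 CPM in bone marrow and at 50.6, 52.5 and 49.3 CPM in culture. Every tissue library was above every culture library, and lung and bone marrow overlapped. The log2 change was 0.45 ± 0.09 in lung against culture (adjusted p = 0.00064) and 0.28 ± 0.09 in bone marrow against culture (adjusted p = 0.013). The bone marrow call was lost without culture replicate 1 (adjusted p = 0.061) and without culture replicate 3 (adjusted p = 0.058). Lung against bone marrow did not pass (0.17 ± 0.09, adjusted p = 0.16).

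**Figure D1:**
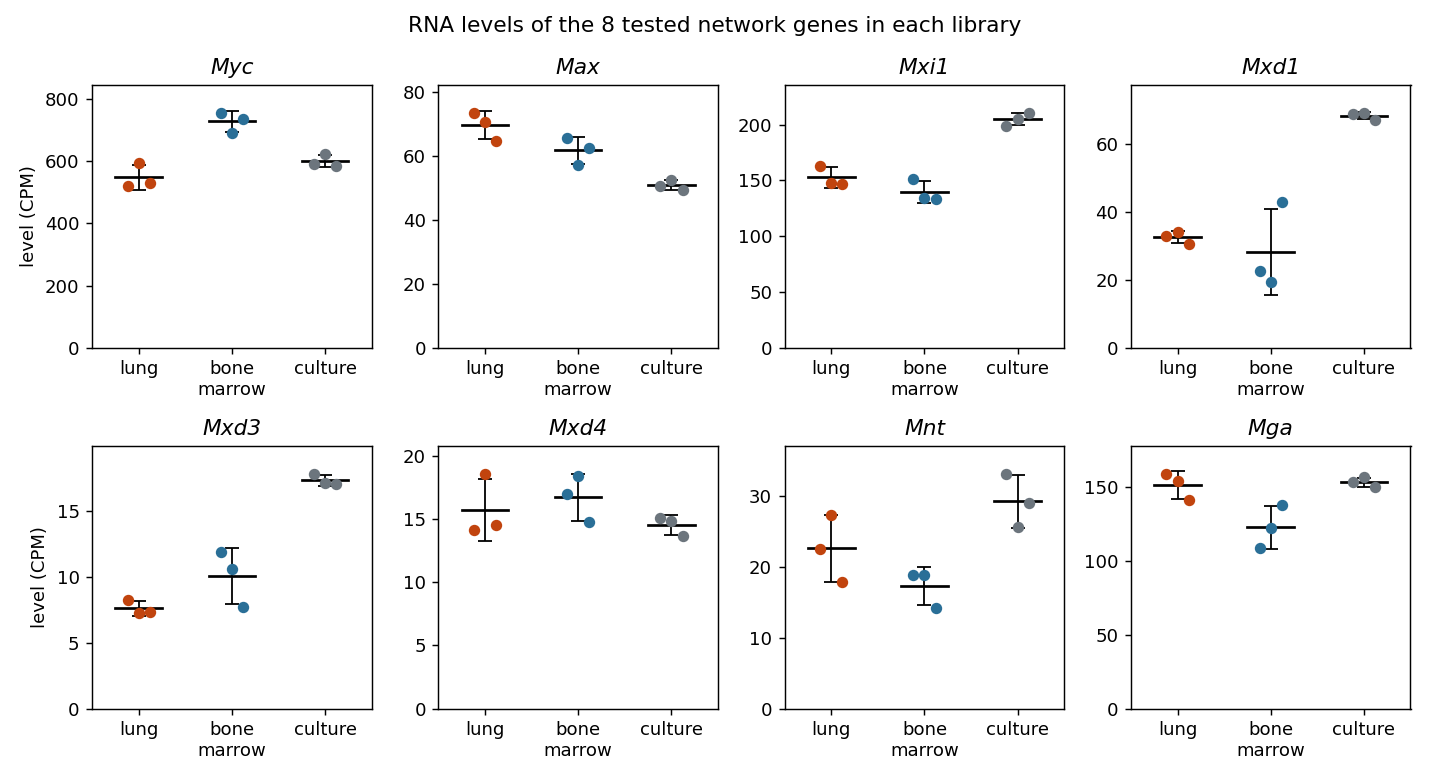
Level of each tested network gene in CPM (vertical axes, each starting at 0) in the 3 lung, 3 bone marrow and 3 culture libraries; points are libraries, horizontal lines means and bars ± SD. Myc was highest in bone marrow (mean 727 CPM), Max rose in both tissues over culture, and Mxd1, Mxd3 and Mxi1 were highest in culture.

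The MXD repressors were lower in both tissues, with the exception of Mxd4. Mxi1 (chromosome 19 from 53310518 to 53375810, plus strand), the most abundant of them, was at 163, 148 and 147 CPM in lung, at 151, 134 and 133 CPM in bone marrow and at 199, 205 and 210.4 CPM in culture. The culture libraries stood above all tissue libraries, and the tissues overlapped. Its log2 change was -0.42 ± 0.08 in lung against culture (adjusted p = 0.00049) and -0.55 ± 0.08 in bone marrow against culture (adjusted p = 4.4e-05). Lung against bone marrow gave 0.13 ± 0.08 and did not pass (adjusted p = 0.25). Gene counts do not tell apart the alternative Mxi1 starts seen in its 3 promoter windows.

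Mxd1 (chromosome 6 from 86647042 to 86669161, minus strand), the member tied to myeloid maturation, showed the widest spread between libraries of a group. Levels were 33.0, 34.3 and 30.7 CPM in lung, 22.7, 19.3 and 42.9 CPM in bone marrow and 69.1, 69.2 and 67.3 CPM in culture. Culture stood clear of both tissues, and bone marrow replicate 3 was above the other bone marrow libraries and above lung. The gene fell in lung against culture (log2 change -1.07 ± 0.25, adjusted p = 0.0046) and in bone marrow against culture (-1.27 ± 0.25, adjusted p = 0.0015), to 0.477 and 0.414 times the culture level. Lung against bone marrow did not pass (0.20 ± 0.25, adjusted p = 0.58). That result rested on bone marrow replicate 3, which also held the most neutrophil marker RNA (2052 CPM, against 326 and 586 CPM in the other bone marrow libraries). It likewise led them in tissue macrophage and monocyte markers (48.3 CPM, against 23.1 and 23.5 CPM). The same held for B cell markers (11.4 CPM, against 1.16 and 1.30 CPM) and T and NK cell markers (3.63 CPM, against 1.01 and 1.18 CPM). Its fibroblast and stroma sum was the lowest (142 CPM, against 176 and 213.5 CPM). The part of any of these cells in the Mxd1 level was not tested. Without bone marrow replicate 3, Mxd1 was higher in lung than in bone marrow (0.62 ± 0.11, adjusted p = 0.0014), and the fall in bone marrow against culture was -1.70 ± 0.11. Without bone marrow replicate 2 the difference between the tissues was -0.01.

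**Figure D2:**
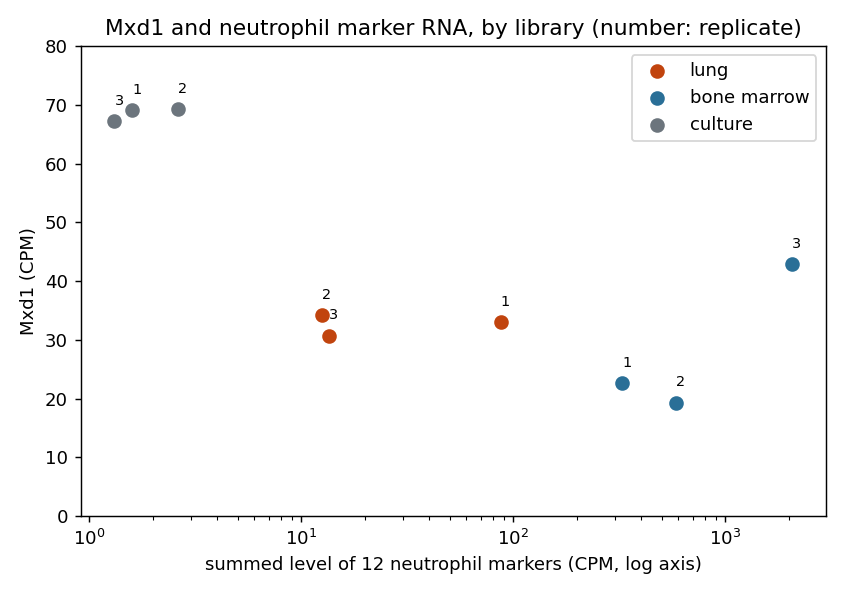
Mxd1 level (vertical axis, CPM) against the summed level of 12 neutrophil markers (horizontal axis, CPM, log scale) in the 9 libraries; numbers are replicates. Bone marrow replicate 3 had the highest neutrophil sum (2052 CPM) and the highest Mxd1 of the tissue libraries (42.9 CPM), while the culture libraries combined the highest Mxd1 with the lowest sums. That library also led the bone marrow libraries in macrophage, B cell and T and NK cell marker sums, and no link to Mxd1 was tested.

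Mxd3 (chromosome 13 from 55325168 to 55329823, minus strand), which unlike its relatives is known for expression in dividing cells, fell furthest in lung. It was at 8.28, 7.27 and 7.34 CPM in lung, at 11.9, 10.6 and 7.76 CPM in bone marrow and at 17.8, 17.1 and 17.1 CPM in culture. The culture libraries were above all others, and only bone marrow replicate 3 fell within the lung range. The log2 change was -1.18 ± 0.16 in lung against culture (adjusted p = 2.6e-05) and -0.78 ± 0.15 in bone marrow against culture (adjusted p = 6e-04). Lung against bone marrow did not pass (-0.40 ± 0.16, adjusted p = 0.075). It passed without bone marrow replicate 3 (-0.58, adjusted p = 0.0087) and with the replicate block in the 6 tissue libraries (-0.39, adjusted p = 0.049). The terminal 105 exon bases of Mxd3, 4.43% of its exons, overlap Prelid1 on the opposite strand, and the reads were counted without strand. Prelid1 was at 217 CPM in lung, 240.4 CPM in bone marrow and 280 CPM in culture, well above Mxd3 and in the same order of groups, and its part in the Mxd3 counts was not tested.

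Mxd4 (chromosome 5 from 34173883 to 34187720, minus strand), a repressor linked to resting and differentiated cells, was the MXD gene that passed in no comparison. It was at 14.1, 18.6 and 14.5 CPM in lung, at 16.96, 18.4 and 14.7 CPM in bone marrow and at 15.1, 14.9 and 13.6 CPM in culture, with all groups overlapping. The log2 changes were -0.09 ± 0.14 for lung against bone marrow, 0.20 ± 0.14 for bone marrow against culture and 0.11 ± 0.14 for lung against culture (adjusted p = 0.68, 0.22 and 0.51). An antisense gene, Gm42846, overlaps 11.8% of its exons but had no reads in any group.

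Mnt (chromosome 11 from 74830920 to 74845725, plus strand), the broadly expressed MAX partner that opposes MYC, was lowest in bone marrow. It was at 22.5, 27.3 and 17.9 CPM in lung, at 18.9, 18.9 and 14.2 CPM in bone marrow and at 33.1, 25.7 and 29.0 CPM in culture. Its bone marrow libraries were all below culture, whereas lung overlapped with both. It fell in bone marrow against culture (log2 change -0.76 ± 0.16, adjusted p = 0.0013). Lung against culture was -0.37 ± 0.16 (adjusted p = 0.066) and lung against bone marrow 0.39 ± 0.16 (adjusted p = 0.10), neither past the threshold. With the replicate number as a block Mnt was higher in lung than in bone marrow (0.38, adjusted p = 0.048, and 0.38 with adjusted p = 0.013 in the 6 tissue libraries alone). Lung against bone marrow stayed short of the threshold in 15 of 19 alternatives, including 8 of the 9 that leave out a library.

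Mga (chromosome 2 from 119897228 to 119969581, plus strand), the Polycomb-linked MAX partner, was lower in bone marrow than in the other groups. It was at 159, 154 and 141 CPM in lung, at 109, 122 and 138 CPM in bone marrow and at 153, 156 and 150.2 CPM in culture. No bone marrow library reached the lung or culture range. Mga was higher in lung than in bone marrow (log2 change 0.30 ± 0.09, adjusted p = 0.027) and lower in bone marrow than in culture (-0.32 ± 0.09, adjusted p = 0.0076). Lung against culture was -0.02 ± 0.09 (adjusted p = 0.87). The call in lung against bone marrow was lost in 9 of 19 alternatives, with adjusted p from 0.009 to 0.095 over all of them. Leaving out replicate 1 or 2 of culture, of bone marrow or of lung each ended it (adjusted p = 0.051, 0.053, 0.061, 0.072, 0.085 and 0.095).

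In lung against bone marrow 1 of the 8 tested members was higher (Mga) and 1 lower (Myc), where 14.2% and 11.1% of all 15066 tested genes were higher and lower and 25.3% passed in all. In bone marrow against culture 2 members were higher (Myc, Max) and 5 lower (Mxi1, Mxd1, Mxd3, Mnt, Mga). There 30.7% of all genes were higher, 29.8% lower and 60.5% passed. In lung against culture 1 member was higher (Max) and 3 lower (Mxi1, Mxd1, Mxd3), beside 27.9% of all genes higher, 27% lower and 54.9% passing. Groups did not overlap for 2, 7 and 4 members in these comparisons, against 36.6%, 67.2% and 66.8% of all genes. In lung against bone marrow and in lung against culture the members' counts were near these shares, and in bone marrow against culture more members were lower than the share of all genes. The members were chosen with earlier results of these data known, so these counts are not independent evidence. Myc moved further between the tissues than in either comparison with culture. Both tissue comparisons use the same culture libraries.

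**Figure D3:**
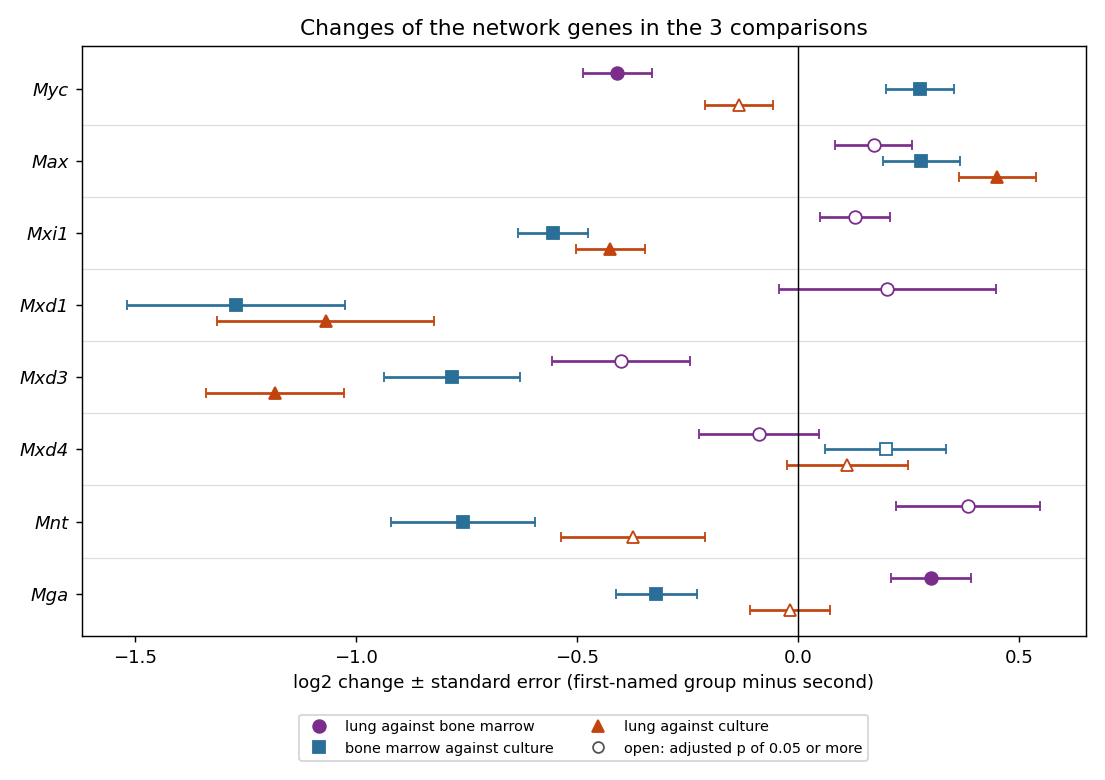
Log2 change of each tested network gene (horizontal axis, first-named group minus second, ± SE) in the 3 comparisons; filled symbols passed at an adjusted p under 0.05. In bone marrow against culture Myc and Max lay above 0, and Mxi1, Mxd1, Mxd3, Mnt and Mga below it.

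Levels of different genes were compared per kilobase of merged exons (reads per kilobase, with CPM divided by exon length, RPKM). Merged exons join all annotated transcripts of a gene, not only those expressed, so ranks and shares can depend on the annotation. On this scale Myc led in every group. It averaged 201.5 ± 14.4 RPKM in lung, 267.5 ± 11.9 in bone marrow and 221 ± 7.59 in culture (SD, n = 3). This was 75.3%, 81.8% and 73.6% of the summed RPKM of the 10 members in lung, bone marrow and culture. Mxi1 came next at 22.4 ± 1.36, 20.5 ± 1.49 and 30.0 ± 0.822 RPKM, followed by Max at 19.3 ± 1.23, 17.2 ± 1.16 and 14.1 ± 0.453 RPKM. In each group the mean of Mxi1 lay above that of Max by more than their summed SDs. Mga followed at 9.86, 8.001 and 9.99 RPKM. Mxd1, Mxd3 and Mnt were lower, between 3.22 and 9.69 RPKM, and changed places between groups. Mxd4 was the lowest of the tested members, at 1.85, 1.97 and 1.71 RPKM. Myc RNA thus exceeded the RNA of its partner Max in every group.

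The ratio of Myc to the summed MXD genes (Mxd1, Mxd3, Mxd4 and Mxi1, in CPM) separated the 3 groups without overlap. It was 2.38, 2.85 and 2.65 in lung, 3.71, 3.79 and 3.70 in bone marrow and 1.96, 2.03 and 1.90 in culture. Means were 2.63 ± 0.236 in lung, 3.73 ± 0.0493 in bone marrow and 1.96 ± 0.0651 in culture (SD, n = 3), given as a description with no test because the members were chosen together. On the log2 scale the ratio was lower in lung than in bone marrow by a difference of -0.51. It was higher than in culture by 0.93 in bone marrow and 0.42 in lung. Different genes stood behind the order of the groups. Summed MXD RNA was 209 ± 9.62 CPM in lung, 195 ± 10.8 CPM in bone marrow and 305 ± 3.72 CPM in culture, so the tissues were close in MXD and differed in Myc. Lung and culture were close in Myc, at 547.5 ± 39.1 and 600 ± 20.6 CPM, and differed in MXD. Mxi1 made up 71.1% to 74.7% of the MXD sum in lung, 67.1% to 74.6% in bone marrow and 66.1% to 68.2% in culture. The ratio compares RNA, and protein levels were not measured.

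**Figure D4:**
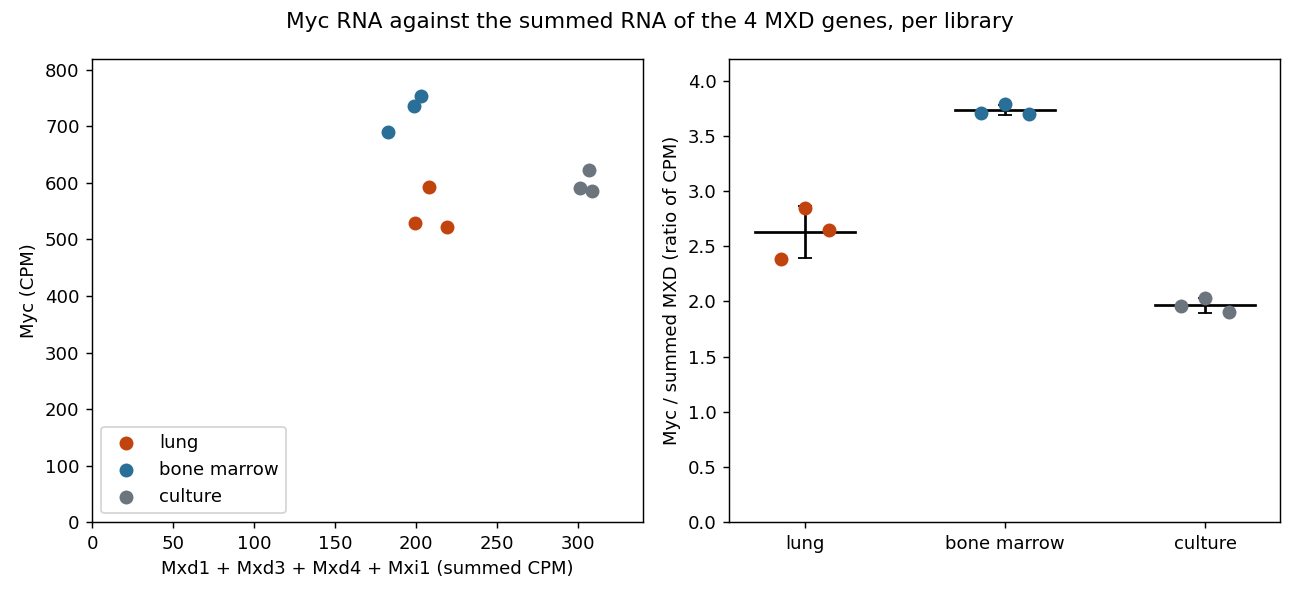
Left, Myc (CPM) against the summed CPM of Mxd1, Mxd3, Mxd4 and Mxi1 in each library, coloured by group; right, their ratio per library with mean and SD, axis from 0. The ratio averaged 2.63 in lung, 3.73 in bone marrow and 1.96 in culture, with no overlap between groups.

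Genes that MYC is known to induce were examined next as a list of 34, all of them tested. Most rose in both tissues over culture. In lung against culture 26 rose and 5 fell (median log2 change 0.66, all genes 0.03), where 27.9% of all genes were higher and 27% lower, and in bone marrow against culture 26 rose and 6 fell (median 0.67, all genes 0.05), where 30.7% were higher and 29.8% lower. Between the tissues 5 were higher and 3 lower in lung (median 0.04, all genes -0.01), where 14.2% of all genes were higher and 11.1% lower. The list was assembled with earlier results of these data known, and its direction is not independent evidence. Many of the listed genes act in ribosome assembly. Bop1, a factor of large-subunit assembly, averaged 334 ± 39.7 CPM in lung, 298 ± 6.65 in bone marrow and 102 ± 0.893 in culture. Its log2 change was 1.71 ± 0.09 in lung against culture (adjusted p = 6.1e-09) and 1.54 ± 0.09 in bone marrow against culture (adjusted p = 9.5e-09). Rrp12, another assembly factor, rose by 1.68 ± 0.08 in lung against culture (adjusted p = 2.1e-09). Nme1, a nucleoside diphosphate kinase, rose by 1.63 ± 0.09 in bone marrow against culture and was lower in lung than in bone marrow by -0.30 ± 0.09 (adjusted p = 0.022). Npm1, the nucleolar chaperone nucleophosmin, was also lower in lung than in bone marrow (-0.32 ± 0.08, adjusted p = 0.011), at 851 ± 75.7 CPM in lung and 1060.0 ± 24.5 CPM in bone marrow.

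Hk2, hexokinase of glycolysis, averaged 12.9 ± 1.45 CPM in lung, 5.66 ± 1.62 CPM in bone marrow and 83.1 ± 3.25 CPM in culture. It fell by a log2 change of -2.69 ± 0.16 in lung against culture and was higher in lung than in bone marrow (1.18 ± 0.17, adjusted p = 0.00039). Mthfd2, of mitochondrial folate metabolism, averaged 68.4 ± 11.1 CPM in lung, 29.2 ± 4.76 CPM in bone marrow and 262 ± 3.49 CPM in culture, with the same order of groups. The remaining members that fell in bone marrow against culture were Ldha (lactate dehydrogenase, -0.82 ± 0.08), Shmt2 (serine to glycine conversion, -1.17 ± 0.09), Eif4e (cap binding in translation, -0.40 ± 0.08) and Ccnd2 (cyclin D2, -0.47 ± 0.09), named after their values were seen. Without bone marrow replicate 1, 9 members were higher in lung than in bone marrow. Without lung replicate 2, 0 were lower, and without lung replicate 1 or bone marrow replicate 2, 1 was.

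Most genes listed as repressed by MYC were lower in bone marrow than in culture, and several were higher in lung than in bone marrow. This list too was assembled with earlier results of these data known, and its direction is not independent evidence. Of 15 listed, 14 were tested. In lung against bone marrow 6 were higher and 0 lower (median log2 change 0.41, all genes -0.01), where 14.2% of all genes were higher and 11.1% lower. In bone marrow against culture 0 rose and 11 fell (median -1.61, all genes 0.05), where 30.7% were higher and 29.8% lower. In lung against culture 2 rose and 6 fell (median -0.39, all genes 0.03), where 27.9% were higher and 27% lower. For the counts of 0 by edgeR, an unadjusted p under 0.05 gave 1 lower gene in lung against bone marrow and 0 higher in bone marrow against culture, and DESeq2 and limma gave 0 in both. The 0 in bone marrow against culture became 1 in 8 of the 9 fits that leave out a library, all but the one without lung replicate 1, and with upper-quartile scaling, library size alone or no low-count filter. The 0 in lung against bone marrow became 1 without bone marrow replicate 3 and with upper-quartile scaling. Cdkn1a, the cell cycle inhibitor p21 and also a p53 target, averaged 16.5 ± 4.80 CPM in lung, 1.64 ± 0.814 CPM in bone marrow and 34.7 ± 1.84 CPM in culture. It was higher in lung than in bone marrow by 3.34 ± 0.31 (adjusted p = 7.6e-05) and lower in bone marrow than in culture by -4.42 ± 0.32 (adjusted p = 8.4e-07). Cdkn2b, the inhibitor p15, fell in lung against culture by -1.76 ± 0.15 and in bone marrow against culture by -2.12 ± 0.15. Cdkn1b, the inhibitor p27, fell in lung against culture by -1.67 ± 0.17 (adjusted p = 3.1e-06). Klf6, a zinc finger factor that is also an immediate early gene, was higher in lung than in both other groups. It averaged 295 ± 18.9 CPM in lung, 30.2 ± 5.96 CPM in bone marrow and 95.5 ± 0.978 CPM in culture, higher in lung than in bone marrow by 3.29 ± 0.12 (adjusted p = 1.1e-09). Rhob, a small GTPase gene induced early after stimulation, was higher in lung than in culture by 1.35 ± 0.13 (adjusted p = 1.4e-06).

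**Figure D5:**
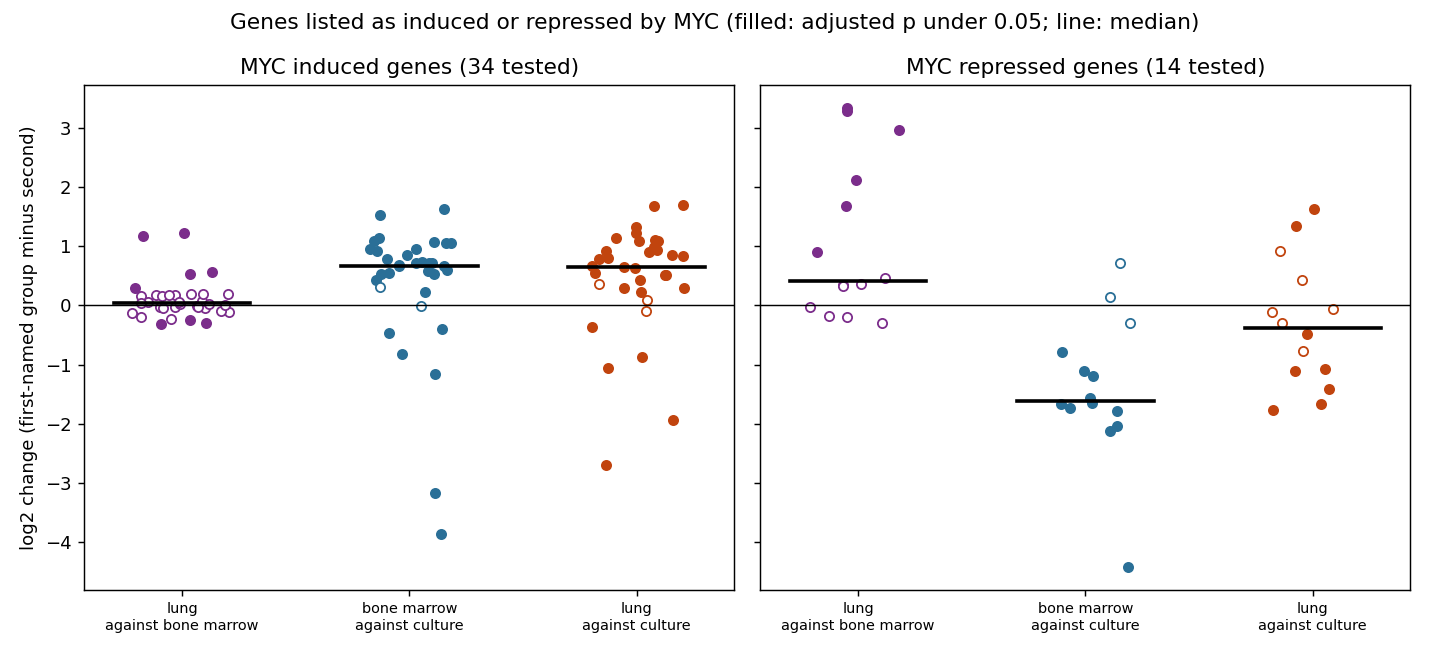
Log2 changes (vertical axis, first-named group minus second) of genes listed as induced by MYC (left, 34 genes) and repressed by MYC (right, 14 genes) in the 3 comparisons; points are genes, filled where they passed, lines are medians. Induced genes had medians of 0.66 in lung against culture and 0.67 in bone marrow against culture, and repressed genes a median of -1.61 in bone marrow against culture.

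The parallel MLX branch holds factors that share the network's dimer fold. Mlx, the MAX-like partner, averaged 75.5 ± 9.14 CPM in lung, 80.8 ± 11.3 CPM in bone marrow and 85.9 ± 2.48 CPM in culture (adjusted p = 0.54 for lung against bone marrow, 0.51 for bone marrow against culture and 0.17 for lung against culture). Of the 3 genes of the branch 0 passed in any comparison by edgeR. At an unadjusted p under 0.05, 1 was higher in lung than in culture and 0 differed otherwise. DESeq2 called 0, and limma called 1 higher and 1 lower in lung against culture. There 1 was also higher with upper-quartile scaling, with library size alone, in the 6 libraries compared and with the replicate block. Leaving out bone marrow replicate 1 or 2 let 1 gene pass as higher in lung against culture, leaving out lung replicate 3 let 1 pass as lower there, and leaving out bone marrow replicate 1 let 1 pass as higher in lung against bone marrow. Their target Txnip, a thioredoxin-binding protein that restrains glucose uptake, averaged 234 ± 66.9 CPM in lung, 126 ± 29.4 CPM in bone marrow and 287.5 ± 9.04 CPM in culture. It was higher in lung than in bone marrow (0.90 ± 0.20, adjusted p = 0.012) and lower in bone marrow than in culture (-1.19 ± 0.21, adjusted p = 0.00072). Txnip is also on the list of MYC repressed genes. Pklr, a pyruvate kinase, fell in all 3 comparisons, by -0.27 ± 0.09 in lung against bone marrow (adjusted p = 0.048), -0.30 ± 0.09 in bone marrow against culture and -0.57 ± 0.09 in lung against culture. The first of these 3 calls was lost without any 1 of the libraries of culture, without replicate 1 or 2 of bone marrow, and without replicate 1 or 2 of lung. Of the 3 listed targets 2 were tested, and Arrdc4 was below the filter. In 7 of the 9 fits that leave out a library, all but those without bone marrow replicate 3 or lung replicate 1, and without the low-count filter, 1 target was higher in each tissue than in culture, the opposite of the direction of Pklr. The replicate block, or leaving out lung replicate 2, gave 2 targets lower in lung than in culture.

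Of 13 other E-box binding factors listed, 11 were tested, with 6 higher and 1 lower in lung against bone marrow (all genes 14.2% and 11.1%), 3 and 4 in bone marrow against culture (all genes 30.7% and 29.8%) and 5 and 4 in lung against culture (all genes 27.9% and 27%). Tfe3, a regulator of lysosome genes, averaged 91.6 ± 6.91 CPM in lung, 50.1 ± 4.31 CPM in bone marrow and 106.7 ± 0.939 CPM in culture (log2 change 0.87 ± 0.09 in lung against bone marrow, adjusted p = 2.4e-05). Tfap4, itself known as a target of MYC, rose over culture by 0.64 ± 0.13 in lung and 0.71 ± 0.13 in bone marrow. Usf1, an abundant E-box binder, rose by 0.41 ± 0.09 in bone marrow against culture. Hes1, a Notch target, was higher in lung than in bone marrow by 1.81 ± 0.37 (adjusted p = 0.0071). Arntl, the clock factor BMAL1, was lower in lung than in bone marrow (-0.37 ± 0.12, adjusted p = 0.042), a call lost without any 1 culture library, without bone marrow replicate 2 or 3, and without lung replicate 1. Without lung replicate 1, 2 factors were lower in lung than in culture.

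Kat2a and Wdr5 led the cofactors of MYC that were higher than culture, in lung and in bone marrow. Of 15, all tested, 1 was higher and 0 lower in lung against bone marrow (all genes 14.2% and 11.1%), 5 and 1 in bone marrow against culture (all genes 30.7% and 29.8%), and 5 and 0 in lung against culture (all genes 27.9% and 27%). The acetyltransferase gene Kat2a rose over culture by 0.85 ± 0.08 in lung and 0.71 ± 0.08 in bone marrow, and Wdr5, a scaffold of histone methyltransferases, by 0.50 ± 0.09 and 0.51 ± 0.09. At an unadjusted p under 0.05, 1 cofactor was lower in lung against bone marrow and 1 in lung against culture. DESeq2 and limma gave 0 in the first of these and 1 in the second. Single libraries moved these counts. Without bone marrow replicate 1, 6 cofactors were higher in lung against bone marrow and 6 lower in bone marrow against culture. Without lung replicate 3 these counts were 3 and 4. Without culture replicate 1, 2 or 3 the number higher in bone marrow against culture was 2, 3 and 2, and the number higher in lung against culture was 2 each time, as it was without lung replicate 2 or 3.

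Of 15 SIN3 complex genes, the corepressors of MXD, 2 were higher and 2 lower in lung against bone marrow (all genes 14.2% and 11.1%), 4 and 4 in bone marrow against culture (all genes 30.7% and 29.8%), and 2 and 3 in lung against culture (all genes 27.9% and 27%). The counts in bone marrow against culture were near the shares of all genes. Sap30, a stabilising subunit, averaged 70.6 ± 5.02 CPM in lung, 50.2 ± 4.26 CPM in bone marrow and 105 ± 1.99 CPM in culture (log2 change -1.07 ± 0.09 in bone marrow against culture, adjusted p = 3.1e-07). Sap18 was higher in bone marrow than in culture (0.52 ± 0.08), and so was the deacetylase gene Hdac1 (0.38 ± 0.07). In lung against bone marrow the histone chaperone gene Rbbp4 was lower (-0.33 ± 0.08) and Suds3 higher (0.29 ± 0.09). Ing2, a histone mark reader, was lower in bone marrow than in culture (-0.45 ± 0.10). Leaving out single libraries gave 1 to 4 SIN3 genes higher and 1 to 2 lower in lung against bone marrow, the 4 without bone marrow replicate 1. Without that library 7 were lower in bone marrow against culture, and without culture replicate 3, 1 was lower in lung against culture. The number higher in lung against culture was 1 without any 1 culture library, without bone marrow replicate 3 and without replicate 1 or 3 of lung. Of 9 genes of the MGA complex 2 were higher and 1 lower in lung against bone marrow, 1 and 4 in bone marrow against culture, and 1 and 2 in lung against culture, beside the same shares of all genes. Tfdp1, a partner of E2F proteins, rose over culture by 0.65 ± 0.09 in lung and 0.73 ± 0.09 in bone marrow. Rnf2, the ubiquitin ligase of the complex, fell by -0.32 ± 0.09 and -0.40 ± 0.09. Rybp was higher in lung than in bone marrow (0.68 ± 0.14), as was the chromatin reader gene L3mbtl2 (0.28 ± 0.09), and Cbx3 was lower (-0.43 ± 0.11). Without any 1 library other than bone marrow replicate 1, 1 gene of the complex was higher in lung against bone marrow. Without culture replicate 2 or 3 or bone marrow replicate 2, 2 were lower in bone marrow against culture. Without replicate 1 or 3 of culture, or replicate 2 or 3 of lung, 1 was lower in lung against culture.

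Of 16 genes that control the stability of MYC protein, all tested, 6 were higher and 1 lower in lung against bone marrow (all genes 14.2% and 11.1%), 3 and 7 in bone marrow against culture (all genes 30.7% and 29.8%), and 6 and 4 in lung against culture (all genes 27.9% and 27%). In both comparisons with culture the number passing was near the share of all genes (60.5% in bone marrow, 54.9% in lung). Fbxw7, the ubiquitin ligase subunit that marks MYC for degradation, averaged 46.7 ± 1.59 CPM in lung and 35.3 ± 3.74 CPM in bone marrow (log2 change 0.40 ± 0.10, adjusted p = 0.01). Trim32, another ligase, was higher in lung too (0.38 ± 0.10, adjusted p = 0.011). Usp36, a nucleolar deubiquitinase of MYC, rose over culture by 1.20 ± 0.08 in lung and 0.86 ± 0.08 in bone marrow. Usp28, a deubiquitinase that opposes FBXW7, fell by -0.72 ± 0.10 and -0.73 ± 0.10. Skp2, a ligase subunit, rose by 0.67 ± 0.10 and 0.82 ± 0.10. Aurka, a mitotic kinase, fell by -1.35 ± 0.10 and -0.996 ± 0.10. In lung against bone marrow the number higher was 3 without bone marrow replicate 2, 3 without lung replicate 1 and 2 without lung replicate 2, and the number lower was 0 without either of these lung libraries.

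Among 16 regulators of Myc RNA, 2 were higher and 0 lower in lung against bone marrow (all genes 14.2% and 11.1%), 5 and 5 in bone marrow against culture (all genes 30.7% and 29.8%), and 6 and 5 in lung against culture (all genes 27.9% and 27%). The counts in bone marrow against culture were near the shares of all genes. Prdm1, which encodes the repressor BLIMP1 known to silence Myc in maturing mouse B cells, averaged 2.88 ± 0.330 CPM in lung, 3.28 ± 0.820 CPM in bone marrow and 36.2 ± 1.57 CPM in culture. It fell by -3.65 ± 0.17 in lung (adjusted p = 3.3e-09) and by -3.47 ± 0.17 in bone marrow (adjusted p = 2.8e-09) against culture. Foxo3, a forkhead factor restrained by growth factor signalling, fell by -1.26 ± 0.13 and -1.52 ± 0.13. Fubp1, which binds an element upstream of MYC in human cells, rose by 0.43 ± 0.10 and 0.51 ± 0.10. E2f1 rose in lung against culture (0.37 ± 0.10), and the RNA binder gene Hnrnpk in bone marrow against culture (0.21 ± 0.08). Igf2bp3, an RNA-binding protein, was higher in lung than in bone marrow (0.59 ± 0.18, adjusted p = 0.028). Pvt1, the noncoding gene beside Myc, chosen after its values were seen, was higher in bone marrow than in culture (0.45 ± 0.16, adjusted p = 0.027). At an unadjusted p under 0.05, 1 regulator was lower in lung against bone marrow, and DESeq2 and limma gave 0. The number higher in lung against bone marrow ran from 0 to 7 when single libraries were left out, with 0 without bone marrow replicate 3 or lung replicate 2 and 7 without bone marrow replicate 1, where 2 were lower. In bone marrow against culture the number higher was 2 without culture replicate 2 or 3 or bone marrow replicate 3, and 3 without culture replicate 1.

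Genes with the pattern most like each member over the 9 libraries were taken from 8540 genes averaging 10 CPM or more, by Pearson correlation of log2(CPM + 1). These values describe 3 groups of libraries that share their handling, and the best of many genes is high by selection. Zfp825 (r = 0.966), Plscr1 (0.946) and Meak7 (0.907) were closest to Myc, each highest in bone marrow. Max was matched by Fmnl1 (0.986), Msantd2 (0.978) and Zfp384 (0.977), each highest in lung. The MXD genes that fell were matched by genes highest in culture, Mxi1 by Rnf103 (0.994), Pja2 (0.993) and Slc4a7 (0.993), Mxd1 by Ythdc2 (0.988), Ivns1abp (0.983) and Efcab14 (0.976), and Mxd3 by Hspa2 (0.997), Mettl27 (0.990) and Bora (0.989). Mnt was followed by Med13l (0.972), Abhd2 (0.972) and Tlk2 (0.953), and Mga by Sat1 (0.952), Hspa13 (0.946) and Galnt7 (0.940). Mxd4 had weaker matches beyond the first, AI837181 (0.944), Arrb2 (0.864) and Slc35b4 (0.838).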

How the data were processed

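Libraries were made from total RNA (RNeasy Plus Micro, SMART-seq v4, ThruPLEX), per the labels' protocols. bcl2fastq, STAR and mm10 are named in the submitters' processing notes, and for versions, counter and annotation: not given in the sources used here. The authors deposited raw counts per gene symbol, counted without strand per the file naming. Genes passing filterByExpr (15066 of 55291) were tested with edgeR 4.0.16 (R 4.3.3), TMM scaling and quasi-likelihood in 1 fit of 9 libraries, at a Benjamini-Hochberg adjusted p under 0.05. The test was checked on simulated data with changes of 1.5, 2 and 4 times. It recovered 53.7% to 56.7% of changes of 1.5 times, 85.1% to 88.1% of 2 times and 92.4% to 100% of 4 times. False calls numbered 8 to 13 per comparison. The simulation changed 66 or 67 genes per size among 14664 to 14706, whereas 25.3% to 60.5% of genes passed in the data. Adjusted p depends on that share, so these rates do not give the share of such changes that the reported tests would find. Smaller changes were not simulated. DESeq2 1.42.0, limma 3.58.1, other scalings and filters, a replicate block and leaving out each library were alternatives. CPM used TMM-scaled library sizes, and exon lengths came from GENCODE M21 (GRCm38). The 10 members and all lists were chosen with earlier results of these data known. Text names all members, up to 2 passing genes per direction for each list and comparison (groups not overlapping, 10 CPM or more), and the 3 genes most like each member. Same-numbered bone marrow and lung libraries deviated together (r = 0.18, 0.389 and 0.152 over genes). Those of different numbers gave r from -0.309 to 0.08. Levels were centred on the 3 libraries of each group, so positive values for some pairs bring negative ones for others. The numbers may pair bone marrow and lung libraries, which was not tested. No label says what a number shares, and culture did not deviate with its numbers (r from -0.092 to -0.003). The main fit held the group only, so its p-values for lung against bone marrow leave this possible pairing out. Only the replicate block alternatives used the numbers. The block in the fit of 9 libraries also grouped culture by number, whereas the block in the tissue libraries alone left culture out. No libraries of a group agreed within sampling noise. A gene of the cofactor list that the naming rule chose is not reported here.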

Additional observations from a re-analysis of the deposited data

Results flagged for a closer look

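The effect of a tissue against culture differs between lung and bone marrow for any gene that passes lung against bone marrow in the edgeR fit, which 25.3% of all tested genes did. Given here are the members that passed it, and those genes named from the lists that passed all 3 comparisons with opposite directions against culture in lung and bone marrow. Other genes named from the lists, such as Txnip, Fbxw7, Trim32, Rybp and Hes1, also passed lung against bone marrow without opposite calls against culture. Myc differed by a log2 change of -0.41 (adjusted p = 0.0026). It rose over culture in bone marrow, while in lung against culture its log2 change was -0.13 and did not pass. Mga differed by 0.30 (adjusted p = 0.027), a call lost in 9 of 19 alternatives. It fell below culture in bone marrow, while in lung against culture its log2 change was -0.02 and did not pass. Klf6 differed by 3.29 (adjusted p = 1.1e-09), higher than culture in lung and lower than culture in bone marrow. Rhob differed by 2.13 (adjusted p = 1.6e-07), with the same directions as Klf6. Lung epithelium markers summed to 14.9 to 84.2 CPM in lung and at most 0.773 CPM in bone marrow, and their part in these differences was not tested.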

How the results depend on the processing

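Myc kept its calls in lung against bone marrow in all 19 alternatives (log2 change -0.48 to -0.37) and in bone marrow against culture in all 18 (0.25 to 0.35). The highest adjusted p over these alternatives was 0.014 in the first comparison. In the second it was 0.05 as rounded, at the edge of the threshold. In lung against bone marrow, genes passing were 3806, or 2381 (1400 higher, 981 lower) when only the 6 libraries compared were fitted. Without single libraries they ranged from 2414 to 4760 (1430 to 2676 higher, 928 to 2084 lower). With the replicate block 4133 genes passed. It called 2 members higher, and in the 6 tissue libraries alone, added after the data were seen, 4 members passed (2 higher, 2 lower) of 4553 genes. Members higher were 0 with upper-quartile scaling, library size alone or the 6 libraries, 2 without the low-count filter, and 0 to 2 without single libraries. Members lower were 2 with upper-quartile scaling and 1 to 2 without single libraries. Members passing were 1 with library size alone or the 6 libraries and 1 to 4 without single libraries, the 4 without bone marrow replicate 3. In bone marrow against culture members higher were 1 to 2 without single libraries. Upper-quartile scaling made 46.2% of passing genes in lung against bone marrow higher, against 56.2%. Signs turned for Mga in lung against culture (0.007 with upper-quartile scaling, 0.025 with library size alone, 0.001 without the low-count filter, 0.004 in the 6 libraries, -0.052 to 0.016 without single libraries; the first 2 equal its value plus the shift of all genes, 0.025 and 0.043), for Mxd1 in lung against bone marrow without bone marrow replicate 2 (-0.009 to 0.62 over single libraries left out) and for Mxd4 in lung against culture without lung replicate 2 (-0.042 to 0.19). Of these, Mxd1 passed without bone marrow replicate 3. Mnt in lung against culture passed without the low-count filter (adjusted p = 0.025), with the block (0.023) and without culture replicate 2, bone marrow replicate 3 or lung replicate 2. The causes were not tested. Depth leaves Mycn and Mycl, at 0 to 4 reads a library, without a test.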
